A study of Homo sapiens with 4 samples.

Results

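Transcripts of 10 human genes were described in 4 cultured lines of acute myeloid leukemia. The genes act in placing or removing the histone H3 lysine 27 trimethyl mark (H3K27me3), or in related Polycomb steps on histone H2A. The genes were chosen by symbol, as the entries KDM6A, KDM6B, EZH1, EZH2, EED, SUZ12, JARID2, ASXL1, BAP1 and BMI1 of the deposited expression tables, and were selected on earlier results from the same RPKM values. They are 10 of 21865 symbols, and all 10 lie among the 12976 symbols that reached 1 RPKM (a read count scaled to gene length and library size) in at least 1 line, called measured below. Because earlier results guided the choice, every value is given as a description and without a test.

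The lines were THP-1 and MonoMac-1, both monocytic and both bearers of the MLL-AF9 fusion, HL60, a promyelocytic line, and KG1a, an immature line. The fusion is general knowledge of the first 2 lines and is not in the sample labels. All lines were grown in the same kind of medium with fetal bovine serum, per the labels' protocols, and the THP-1 title has the suffix "tr", which nothing in the labels explains. Each line is a single library, so differences tied to the fusion, the monocytic lineage or a single culture cannot be told apart, and there was no replicate spread to set a difference against.

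The libraries held 6.04 (THP-1), 13.6 (MonoMac-1), 8.72 (HL60) and 10.2 (KG1a) gigabases on genes. Summed over 10 monocytic marker genes, the levels were 1022 RPKM for THP-1 and 5301 for MonoMac-1, against 21.6 for HL60 and 3.04 for KG1a. LYZ alone gave 510 RPKM of the THP-1 sum and 4837 of the MonoMac-1 sum, and FCN1 was highest in HL60 (3.77 RPKM). The 7 granulocytic markers summed to 6494 RPKM for THP-1 and 6918 for MonoMac-1, against 12710 for HL60 and 30.6 for KG1a. Of these, 4 were at least 2-fold higher in the MLL-AF9 lines than in both others, and 3 (MPO, PRG2 and CLC) were highest in HL60. The 6 stem and progenitor markers summed to 4.58 RPKM for THP-1 and 26.4 for MonoMac-1, against 52.7 for HL60 and 786 for KG1a. MEIS1 alone gave 18.6 RPKM of the MonoMac-1 sum, and GATA2 alone gave 32.6 of the HL60 sum. In HL60 CD34, BAALC and HOPX stood at 2.62%, 2.58% and 2.76% of their KG1a values. CD14 stood at 1.28 RPKM for THP-1 and 4.13 for MonoMac-1, low levels for this monocyte receptor, against 0.0787 for HL60 and 0.0756 for KG1a. The 11 genes of at least 50 RPKM in KG1a and under 0.2 in both MLL-AF9 lines stood in HL60 at a median of 2.71% of their KG1a values, so low HL60 values of genes high in KG1a are given with that share. Values are from bulk RNA, in which fewer expressing cells and less RNA per cell cannot be told apart.

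Polycomb repressive complex 2 (PRC2) places methyl groups on H3K27. Its catalytic subunit is EZH2 or its paralog EZH1, and EED and SUZ12 are required partners, while JARID2 helps to bring the complex to its targets. KDM6A (also called UTX) and KDM6B (JMJD3) remove the mark. BMI1 belongs to PRC1, which ubiquitinates histone H2A, and BAP1 with ASXL1 forms the deubiquitinase that takes this ubiquitin off. Several of these genes, among them EZH2, ASXL1 and KDM6A, are mutated in myeloid disease, and BMI1 is known for holding down the CDKN2A locus in blood stem cells.

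The largest departure was KDM6A in THP-1, which was almost without transcript. Next came BMI1, which was low in HL60 and high in KG1a, KDM6B, which was high in HL60, and EZH2, which was high in HL60 and THP-1. On the log2(RPKM + 1) scale the highest line was at least 2-fold above the lowest in 6 of the 10 genes (KDM6A, KDM6B, EZH2, EED, JARID2 and BMI1), where 61.1% of all measured genes met this rule. At 4-fold 2 remained, KDM6A and BMI1, against 21.8% of all genes. The median range over the lines was 1.18 log2 units for the 10 genes and 1.18 for all measured genes, so as a group they varied about as much as other genes.

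**Figure D1:**
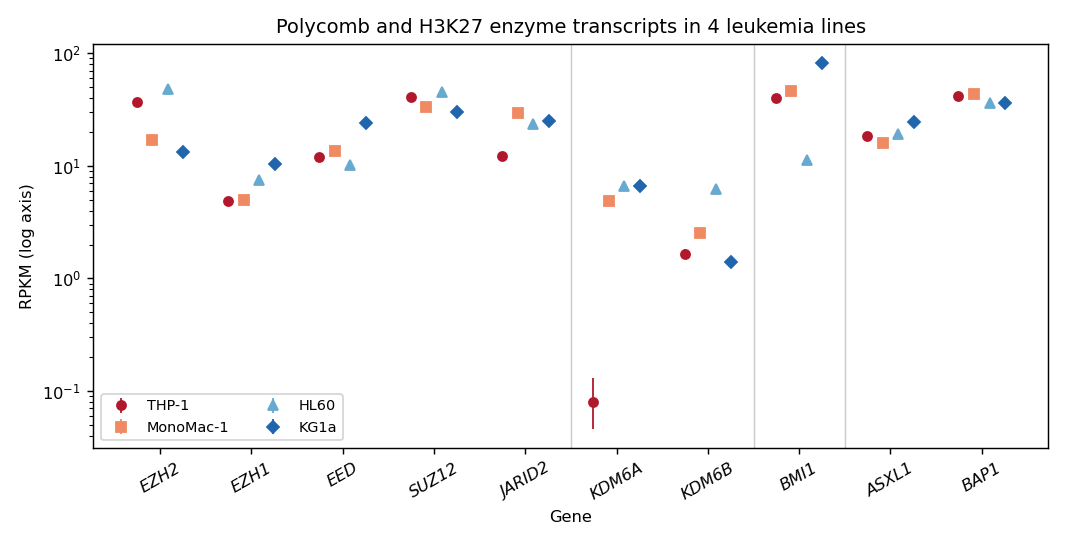
RPKM (log axis) of the 10 genes in THP-1, MonoMac-1, HL60 and KG1a, 1 point per library, with 95% counting intervals that are in many cases smaller than the symbols. KDM6A in THP-1, at 0.0798 RPKM, lies far below every other point, and BMI1 and KDM6B spread most among the rest.

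Promoters of 3 genes that the results below turn on are shown, 1 each for a demethylase, a methylase and a PRC1 subunit. They are RefSeq windows of build GRCh38.p14, from 250 bases before to 50 bases after the start, a build other than the hg19 of the tables. Capitals mark the CCAAT box, the E-box CACGTG and the E2F-type motif TTTGGCGC, each searched on both strands. The lines give KDM6A (plus strand, chrX:44872938-44873237), EZH2 (minus strand, chr7:148884242-148884541) and BMI1 (plus strand, chr10:22320849-22321148).
KDM6A: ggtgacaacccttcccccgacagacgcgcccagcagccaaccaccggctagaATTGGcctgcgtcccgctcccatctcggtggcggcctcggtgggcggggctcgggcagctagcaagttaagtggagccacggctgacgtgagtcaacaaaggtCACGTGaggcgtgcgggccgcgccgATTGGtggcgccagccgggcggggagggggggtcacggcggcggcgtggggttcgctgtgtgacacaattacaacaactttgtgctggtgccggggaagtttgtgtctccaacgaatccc
EZH2: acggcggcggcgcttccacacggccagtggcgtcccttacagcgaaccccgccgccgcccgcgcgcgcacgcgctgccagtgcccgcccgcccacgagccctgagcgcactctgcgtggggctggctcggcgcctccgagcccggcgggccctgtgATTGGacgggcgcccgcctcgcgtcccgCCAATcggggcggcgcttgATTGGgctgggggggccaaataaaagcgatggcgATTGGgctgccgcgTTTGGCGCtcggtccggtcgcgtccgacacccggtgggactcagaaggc
BMI1: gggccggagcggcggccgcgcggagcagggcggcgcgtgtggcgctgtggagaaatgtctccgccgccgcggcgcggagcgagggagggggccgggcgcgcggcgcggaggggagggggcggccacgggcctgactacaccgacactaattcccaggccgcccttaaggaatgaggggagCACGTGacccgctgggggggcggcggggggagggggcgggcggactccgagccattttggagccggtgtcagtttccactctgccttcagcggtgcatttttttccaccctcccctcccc

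Of the 10 genes 9, all but BAP1, had a promoter entry, in 15 windows. EZH2 held 4 CCAAT matches and the single E2F-type match, a motif present in 0.652% of all 35116 windows. KDM6A held 2 CCAAT matches and 1 E-box, and BMI1 held 1 E-box. CCAAT occurred in 34.6% of all windows and in 5 of the 15, and the E-box in 7.26% of all and in 2 of the 15. The windows of these 9 genes were rich in CpG, with a median of 31 CpG per 300 bases, against 14 over all windows, and 14 of the 15 lay above that median. All windows, of 27305 genes, were not limited to measured genes, as these 9 were, so the difference is not particular to this set. The 15 windows are not all separate, since 2 of ASXL1 overlap almost wholly (starts 32358081 and 32358094). A match describes letters and shows no binding.

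KDM6A, the X-linked H3K27 demethylase (chromosome X, 44732423 to 44971845, hg19), stood at 0.0798 RPKM for THP-1 and 4.90 for MonoMac-1, against 6.61 for HL60 and 6.66 for KG1a. The THP-1 value rested on 16 fragment equivalents (200 sequenced bases each) and had a 95% counting interval of 0.0456 to 0.130, whereas the other libraries held at least 1879. MonoMac-1 exceeded THP-1 by 61.5 times, and the intervals of HL60 and KG1a overlapped. KDM6A was at least 2-fold lower in THP-1 than in each other line, as were 1.60% of all measured genes. Only 21 measured genes (0.162%) were under 0.1 RPKM for THP-1 while reaching 1 RPKM in each other line, KDM6A among them.

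The neighbours of KDM6A were also near 0 for THP-1. Of the 12 entries from CASK to CXorf36 (chromosome X, 41374189 to 45060146, 3.69 megabases), 8 were listed at 0 for THP-1 and the highest, GPR82, stood at 0.116 RPKM. FUNDC1, a mitophagy receptor that lies next but 1 to KDM6A, was listed at 0 for THP-1, against 9.54 RPKM for MonoMac-1, 8.86 for HL60 and 8.54 for KG1a. CASK, a scaffold kinase, stood at 0.00692 RPKM for THP-1, against 2.51, 0.739 and 3.09 for MonoMac-1, HL60 and KG1a, and EFHC2 reached 1 RPKM for KG1a alone (2.84). The stretch therefore held 4 genes that reached 1 RPKM in another line, and none of them did so in THP-1. On either side lay entries with transcripts in THP-1, among others at or near 0 in all 4 lines such as NYX and MIR222. DDX3X, an RNA helicase gene, stood at 66.1 RPKM for THP-1, against 58.8, 71.1 and 55.5 for MonoMac-1, HL60 and KG1a, and RP2 on the other side at 15.96 for THP-1, against 14.8, 10.3 and 3.49 for MonoMac-1, HL60 and KG1a. The limits of this stretch were chosen after the values were seen, and the files hold RNA values alone.

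**Figure D2:**
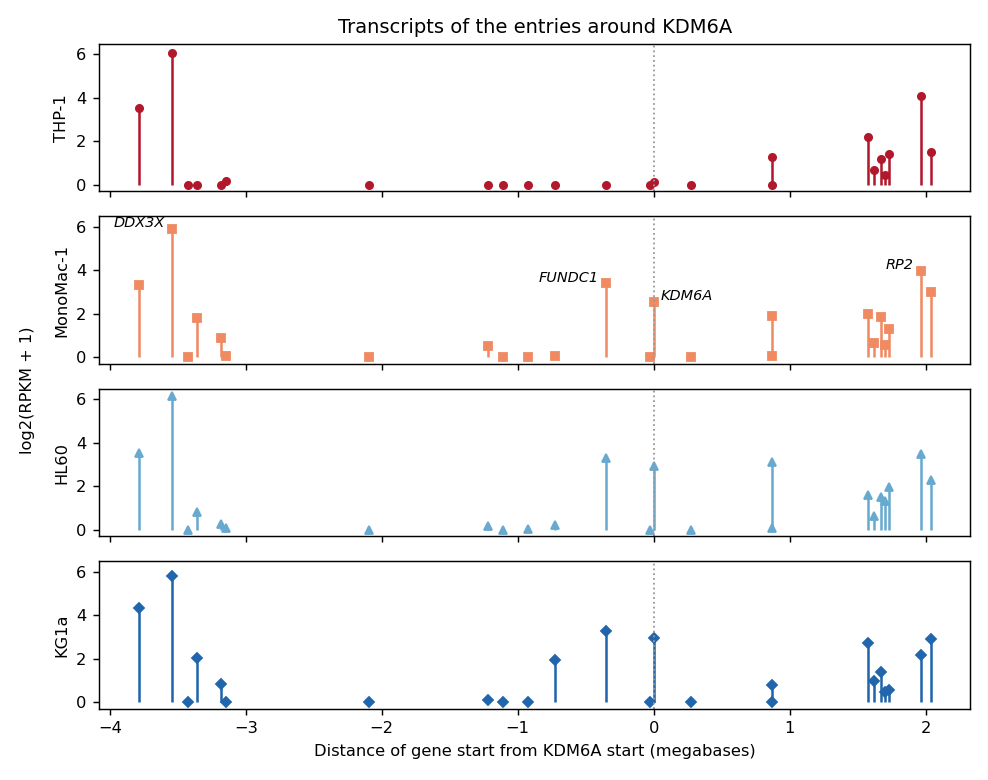
Levels, as log2(RPKM + 1), of the entries around KDM6A by the distance of their starts from the KDM6A start, in megabases, with 1 panel per line. In THP-1 (top) no entry from CASK to CXorf36 exceeds 0.116 RPKM, whereas FUNDC1 and KDM6A stand up in the other 3 lines.

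KDM6B, the inducible H3K27 demethylase (chromosome 17, 7743235 to 7758118), was led by HL60. It stood at 1.64 RPKM for THP-1 and 2.52 for MonoMac-1, against 6.17 for HL60 and 1.398 for KG1a. HL60 was at least 2-fold above each other line, as it was in 2.17% of all measured genes, and the counting intervals of THP-1 and KG1a overlapped. KDM6A and KDM6B together came to 1.72 RPKM for THP-1, 7.42 for MonoMac-1, 12.8 for HL60 and 8.06 for KG1a. KDM6B made up 95.4% of this sum for THP-1, 33.9% for MonoMac-1, 48.3% for HL60 and 17.3% for KG1a. THP-1 thus had the lowest demethylase sum, and nearly all of it came from KDM6B.

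EZH2, the PRC2 methylase of dividing cells (chromosome 7, 148504475 to 148581414), stood at 36.7 RPKM for THP-1 and 16.9 for MonoMac-1, against 48.2 for HL60 and 13.3 for KG1a. No counting intervals overlapped, and the MLL-AF9 lines lay between HL60 and KG1a. EZH1, the paralog that prevails in resting cells (chromosome 17, 40852293 to 40897071), followed another order, at 4.90 RPKM for THP-1 and 4.98 for MonoMac-1, against 7.45 for HL60 and 10.3 for KG1a. Its MLL-AF9 values overlapped each other and lay below both other lines. KG1a was therefore lowest for EZH2 and highest for EZH1.

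The ratio of EZH2 to EZH1, both per length, was 7.50 for THP-1 and 3.39 for MonoMac-1, against 6.47 for HL60 and 1.29 for KG1a. EZH1 supplied 43.6% of the summed EZH transcripts in KG1a and 11.8% to 22.8% in the other lines. Median levels of 23 proliferation genes were 56.6 RPKM for THP-1, 71.8 for MonoMac-1, 64.1 for HL60 and 77.1 for KG1a. This was the reverse of the order of the EZH2 to EZH1 ratio. The summed levels of the same genes gave another order, highest in HL60 (2335 RPKM) and lowest in MonoMac-1 (1760). The part of proliferation in the EZH2 levels was not tested. The methylase sum, EZH1 plus EZH2, exceeded the demethylase sum by 24.2 times for THP-1, 2.95 times for MonoMac-1, 4.35 times for HL60 and 2.93 times for KG1a. THP-1 had the highest of these ratios, with the lowest demethylase sum (1.72 RPKM). Its methylase sum of 41.6 RPKM lay between the 21.9 of MonoMac-1 and the 55.7 of HL60, with KG1a at 23.6. How much KDM6A, KDM6B and EZH2 each added to the ratio was not tested.

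**Figure D3:**
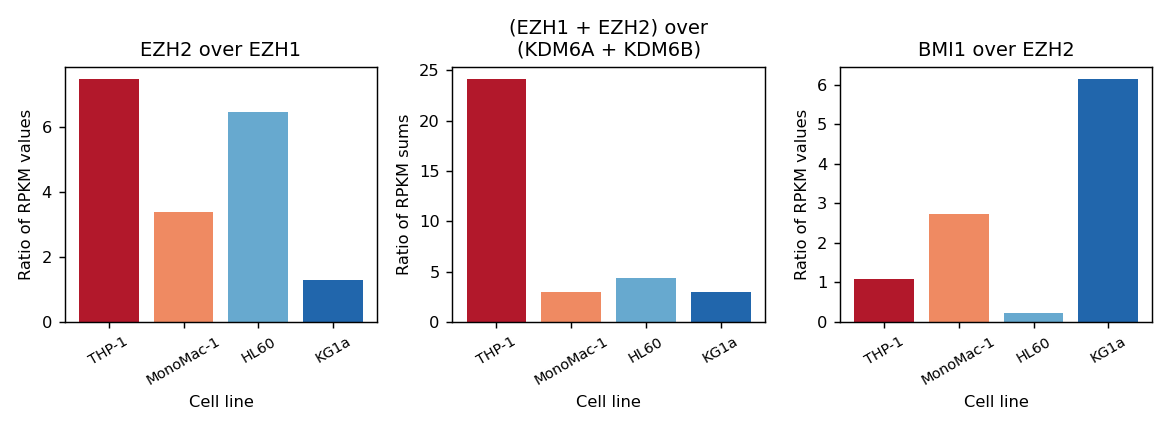
Ratios of RPKM values within each library, as bars from 0, for THP-1, MonoMac-1, HL60 and KG1a. The middle panel shows the ratio of methylase to demethylase transcripts, 24.2 for THP-1 and 2.93 to 4.35 in the other lines, and the outer panels show EZH2 over EZH1 and BMI1 over EZH2, for which KG1a is at opposite ends.

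Of the partner subunits SUZ12 was steady and EED was not. SUZ12, which holds the complex together (chromosome 17, 30264044 to 30328057), stood at 41.0 RPKM for THP-1 and 33.1 for MonoMac-1, against 45.4 for HL60 and 30.4 for KG1a. The highest was 1.49 times the lowest, with the lines in the same order as for EZH2. A partial copy of the gene, SUZ12P, stood at 8.15 RPKM for THP-1 and 6.40 for MonoMac-1, against 3.85 for HL60 and 4.13 for KG1a, and reads shared between them make the SUZ12 values uncertain. EED, the subunit that binds H3K27me3 (chromosome 11, 85955815 to 85989780), stood at 11.96 RPKM for THP-1 and 13.5 for MonoMac-1, against 10.2 for HL60 and 24.0 for KG1a. KG1a was the high line here, and the ratio of SUZ12 to EED was 3.43, 2.44, 4.43 and 1.27 for THP-1, MonoMac-1, HL60 and KG1a.

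JARID2, the accessory subunit (chromosome 6, 15246527 to 15522253), separated the MLL-AF9 lines from each other. It stood at 12.2 RPKM for THP-1 and 29.5 for MonoMac-1, against 23.7 for HL60 and 24.96 for KG1a. THP-1 was low, 1.95 times below the next line, HL60, and MonoMac-1 led KG1a by 1.18 times. DTNBP1, which begins 779 bases past JARID2, was also lowest in THP-1, at 3.17 RPKM, against 8.39 for MonoMac-1, 8.01 for HL60 and 12.04 for KG1a.

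BMI1, the PRC1 subunit of stem cells (chromosome 10, 22610006 to 22620414), stood at 39.7 RPKM for THP-1 and 46.1 for MonoMac-1, against 11.2 for HL60 and 82.0 for KG1a. HL60 was at least 2-fold below each other line, as it was in 3.87% of all measured genes. The HL60 value was 13.7% of the KG1a value, and 8.97 RPKM were left after the 2.71% share was taken off. COMMD3, whose entry ends 769 bases before BMI1, was likewise lowest in HL60, at 63.6 RPKM for THP-1 and 119.6 for MonoMac-1, against 14.9 for HL60 and 107 for KG1a. A read-through transcript of COMMD3 and BMI1 is annotated in RefSeq, and the labels do not say how its reads were assigned. The ratio of BMI1 to EZH2 was 1.08 for THP-1 and 2.73 for MonoMac-1, against 0.232 for HL60 and 6.15 for KG1a.

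ASXL1 and BAP1 were the steadiest, together with SUZ12. ASXL1 (chromosome 20, 30946147 to 31027122) stood at 18.4 RPKM for THP-1 and 15.9 for MonoMac-1, against 19.4 for HL60 and 24.6 for KG1a. BAP1, the deubiquitinase itself (chromosome 3, 52435025 to 52444009), stood at 42.0 RPKM for THP-1 and 43.6 for MonoMac-1, against 36.0 for HL60 and 36.0 for KG1a. The BAP1 intervals overlapped within each pair of lines and not between the pairs, a difference of 0.24 log2 units between the means.

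**Figure D4:**
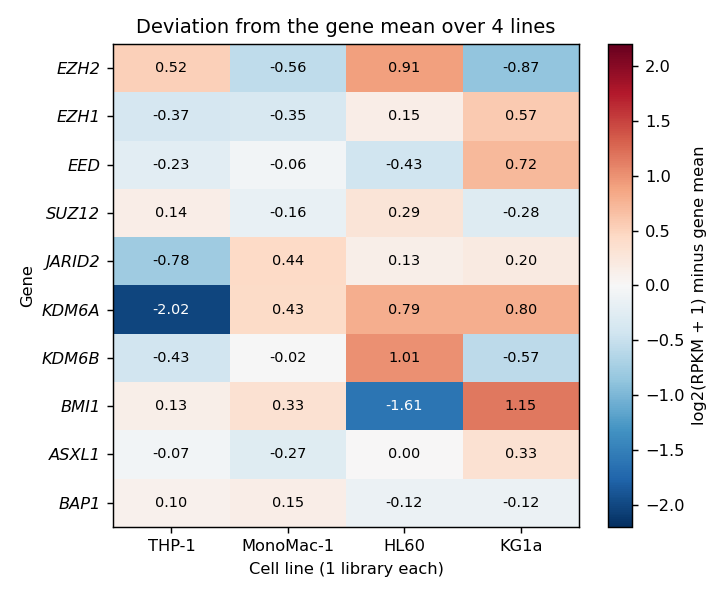
Deviation of log2(RPKM + 1) from each gene's own mean over the 4 lines (colour and number), genes in rows and THP-1, MonoMac-1, HL60 and KG1a in columns. The strongest cells are KDM6A in THP-1 (-2.02), BMI1 in HL60 (-1.61) and BMI1 in KG1a (1.15), while BAP1 and SUZ12 stay within 0.29.

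Comparing the MLL-AF9 lines with HL60 and KG1a asks whether these genes go with the fusion and its lineage. By any margin 1 gene, BAP1, had both MLL-AF9 values above both of the others, where 22.1% of all measured genes did. On the lower side were 3 (KDM6A, EZH1 and ASXL1, the last not with equal RPKM sums), where 19.6% of all genes were. With a gap of at least 2-fold 0 of the 10 were higher and 0 lower, where the shares among measured genes were 4.38% and 1.58%. The 10 genes had a median difference of -0.31 log2 units and all measured genes one of 0.02. The counts rested on the lines included. With HL60 left out they were 4 higher and 5 lower, and with KG1a left out 3 higher and 6 lower. Dropping THP-1 gave 2 higher and 3 lower, and dropping MonoMac-1 gave 1 higher and 4 lower. At 2-fold, KDM6B (lower) and BMI1 (higher) were apart without KG1a, and KDM6A (lower) without MonoMac-1.

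The MLL-AF9 lines differed from each other by at least 2-fold in 3 of the 10 genes. EZH2 was higher in THP-1 than in MonoMac-1 by 1.08 log2 units, as were 7.65% of all measured genes at this fold, and KDM6A and JARID2 were lower by 2.45 and 1.21, as were 9.68%. HL60 was at least 2-fold above KG1a in KDM6B and EZH2 (13.1% of all genes) and at least 2-fold below it in EED and BMI1 (17.9%). KG1a was the highest line for 5 genes (KDM6A, EZH1, EED, ASXL1 and BMI1), against 31.0% of all measured genes, and the lowest for 3 (KDM6B, EZH2 and SUZ12), against 29.7%. For KDM6A the lead of KG1a over HL60 was within the counting interval. With median-of-ratios scaling, and with quantile normalization, KG1a was highest for 4 genes in place of 5.

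The wider PRC2 list held 14 measured genes, 5 of them among the 10. By any margin the MLL-AF9 pair was above the other pair for 1 (PHF1, a reader of methylated H3K36) and below it for 6, and 0 were 2-fold apart, with a median difference of -0.34 log2 units. PHF19, another reader subunit, stood at 15.9 RPKM for THP-1 and 27.9 for MonoMac-1, against 32.6 for HL60 and 44.3 for KG1a. C17orf96 (EPOP) stood at 2.66 RPKM for THP-1 and 3.15 for MonoMac-1, against 5.83 for HL60 and 10.2 for KG1a.

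Of 26 measured PRC1 genes 4 were higher, 9 lower and 0 were 2-fold apart, with a median of 0.06. The catalytic RNF2 (RING1B) was lower, at 4.57 RPKM for THP-1 and 7.03 for MonoMac-1, against 10.5 for HL60 and 17.04 for KG1a. Its paralog RING1 was higher, at 40.3 RPKM for THP-1 and 34.4 for MonoMac-1, against 27.3 for HL60 and 22.4 for KG1a. Those differing most between lines involved KG1a. CBX2, a chromodomain reader, stood at 4.13 RPKM for THP-1 and 0.242 for MonoMac-1, against 7.16 for HL60 and 45.9 for KG1a. Its HL60 value was 15.6% of the KG1a value. AUTS2 reached 13.7 RPKM for KG1a, and its 0.369 for HL60 was 2.69% of that. MGA, of the PRC1.6 variant, stood at 15.3 RPKM for THP-1 and 10.9 for MonoMac-1, against 14.1 for HL60 and 0.459 for KG1a. SCML2 stood at 3.42 RPKM for THP-1 and 3.46 for MonoMac-1, against 8.55 for HL60 and 0.0078 for KG1a.

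Of 10 measured genes of the BAP1 deubiquitinase complex 3 were higher (BAP1, ASXL2 and MBD6) and 4 lower, and of 10 genes of the COMPASS complex that holds KDM6A 1 was higher (ASH2L) and 5 were lower. None of either list was 2-fold apart. ASH2L stood at 52.0 RPKM for THP-1 and 54.0 for MonoMac-1, against 15.4 for HL60 and 51.0 for KG1a. Its gap was thus 0.026 log2 units, and HL60 was the low line. MLL3 (KMT2C), a methylase of that complex, stood at 8.21 RPKM for THP-1 and 4.19 for MonoMac-1, against 9.16 for HL60 and 12.1 for KG1a. MLL2 (KMT2D) stood at 8.69 RPKM for THP-1 and 15.1 for MonoMac-1, against 19.6 for HL60 and 14.1 for KG1a. Both methylases were thus transcribed in THP-1, where KDM6A was nearly silent.

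CDKN2A, the classic target of BMI1, was listed at 0 for THP-1 and stood at 149 RPKM for MonoMac-1, against 3.28 for HL60 and 4.31 for KG1a. MTAP and KLHL9, also on chromosome 9, were with CDKN2A and KDM6A among the 21 genes under 0.1 RPKM in THP-1 alone. BMI1 itself was 1.16 times lower in THP-1 than in MonoMac-1.

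The genes most like each of the 6 varying members were taken as those with the smallest root mean square difference of centred log2 values over the 4 lines, among 6270 genes of at least 5 RPKM in every line. EZH2 was nearest to FAM60A (0.10 log2 units; 26.0, 12.6, 41.6 and 10.1 RPKM for THP-1, MonoMac-1, HL60 and KG1a), EEF1B2 and NCRNA00188. BMI1 was nearest to PPDPF (0.19), RAD21 and KIAA0196, and no gene came within 0.1 of it. KDM6A was nearest to FKBP4 (0.10), DHCR7 and ICAM3, in a pool that by its own minimum holds no gene near 0. This likeness holds on the log2(RPKM + 1) scale, which compresses the low THP-1 value of KDM6A. FKBP4 stood at 10.3 RPKM for THP-1 and 50.4 for MonoMac-1, against 0.0798 and 4.90 for KDM6A. KDM6B was nearest to NUDC, ATAD3A and RNU86, EED to VGLL4, RNF168 and CHRAC1, and JARID2 to HLA-H, CDCA3 and CDC34, all within 0.07. Within 0.1 lay 26 genes for EED, 12 for JARID2 and 9 for KDM6B.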

How the data were processed

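RNA was sequenced from 1 library per line. Per the submitters' processing notes CASAVA 1.8.2 and hg19 were used. The sources used here do not name the aligner, annotation, strand handling or filters. The authors deposited, per line, a table of 21893 entries with RPKM values and a whole-number coverage signal without a stated unit. This signal was read from its values as the sum of sequenced bases, because RPKM was proportional to it and its commonest low value was 200. Multiples of 100 made up 44.7% (THP-1), 47.0% (HL60) and 41.7% (KG1a) of its low values, but 10.0% in MonoMac-1. The fragment size of 200 bases, and the counting intervals that rest on it, are therefore less certain for MonoMac-1.

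Repeated symbols were represented by their highest-mean entry. Differences were taken as log2(RPKM + 1), which understates changes of low genes, and plain RPKM ratios are called times. No test was run, since there is 1 library per line and RPKM is no count. A gap is the lower value of 1 pair of lines against the higher value of the other. Counting intervals (95%, exact Poisson, scipy 1.17.1) treat each 200 bases as 1 fragment and cover counting error only. The members, lists and comparisons were chosen with earlier results of these data known, and the sums and ratios across enzymes after values were seen. Genes of the wider lists were named where pairs were 2-fold apart, or where the highest line was 4-fold above the lowest and at least 5 RPKM, and other genes named were chosen after their values were seen. The promoter sequences are from RefSeq. Scaling, pseudocount, filter, KG1a share and lines were varied.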

Additional observations from a re-analysis of the deposited data

How the results depend on the processing

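Among recomputed counts 60 stayed within 1.5 times and 8 did not. With 4-fold in place of 2-fold, 2 genes in place of 6 had a highest line that far above the lowest. Leaving out 1 line in turn gave 0 to 2 genes at least 2-fold apart between the pairs, 1 to 4 higher and 3 to 6 lower by any margin, 4 to 5 with a 2-fold range, and 5 to 6 highest in KG1a. With equal RPKM sums, which moved the median gene by 0.14 log2 units in KG1a, ASXL1 no longer counted as lower and EZH1 joined the genes with a 2-fold range. EZH1 also joined them with a pseudocount of 0.1 and with none. The genes highest in KG1a numbered 4 with median-of-ratios scaling and with quantile normalization. Among recomputed differences and ratios of single genes 197 stayed and 67 moved. Some of the 197 could not move, since the filters and the choice of a repeated entry left these values unchanged. Differences between THP-1 and MonoMac-1 could also not move when HL60 or KG1a was left out or the KG1a share was taken off. Of the differences and ratios, none of at least 1 log2 unit turned its sign. Smaller ones did. Without HL60 the difference of the MLL-AF9 lines from the others was 0.35 for KDM6B (-0.44 with all lines), 0.86 for EZH2 (-0.03), 0.27 for SUZ12 (-0.01) and -0.92 for BMI1 (0.46). It was 0.29 for EED without KG1a (-0.29), 0.27 for JARID2 without THP-1 (-0.34), and 0.51 for EZH2 and 0.14 for SUZ12 without MonoMac-1. Changes of sign under other settings were in differences that were under 0.1 log2 units in size as first computed (SUZ12 between the pairs, EZH1 and BAP1 between THP-1 and MonoMac-1). The log2 ratio of KDM6A to KDM6B in THP-1 was -4.36 without a pseudocount, -3.28 with 0.1 and, in an alternative added after the data were seen, -1.29 with 1. No paired analysis was possible because each line has 1 library and the number 1 pairs nothing. For KDM6A the difference between the pairs was -1.60 with all lines, -0.37 without THP-1 and -2.82 without MonoMac-1. Depth limits KDM6A in THP-1, where 16 fragment equivalents were counted.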

Other observations

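Of 17 subunits of SWI/SNF, the remodeling complex that opposes Polycomb, 1 had both MLL-AF9 values above the other pair and 7 had both below it, 0 were 2-fold apart, and 9 were highest in KG1a. SMARCA4, an ATPase of the complex, stood at 42.9 RPKM for THP-1 and 44.9 for MonoMac-1, against 68.5 for HL60 and 86.8 for KG1a. Its paralog SMARCA2 stood at 71.7 RPKM for THP-1 and 33.5 for MonoMac-1, against 27.3 for HL60 and 58.1 for KG1a. EP300, an acetyltransferase of the same H3K27 residue, stood at 26.6 RPKM for THP-1 and 20.8 for MonoMac-1, against 19.7 for HL60 and 22.0 for KG1a.

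Of 29 known Polycomb targets, developmental regulators together with the cell cycle inhibitor genes CDKN2A and CDKN2B, 11 reached 1 RPKM in any line. Of these 5 reached 1 RPKM for THP-1 and 3 for MonoMac-1, against 6 for HL60 and 3 for KG1a. Those of MonoMac-1 were CDKN2A, CDKN2B and FOXA1, and CDKN2A was also among those of HL60 and KG1a. The targets that reached at least 5 RPKM, CDKN2A (given above) among them, differed by line. LHX2 stood at 5.26 RPKM for THP-1 and under 0.1 in the other lines. OLIG2 stood at 3.21 RPKM for THP-1 and 0.0152 for MonoMac-1, against 17.3 for HL60, and was listed at 0 for KG1a. HOXD13 (8.47 RPKM) and HOXC10 (10.1) were led by HL60 and FOXC1 (10.6) by KG1a. WT1 stood at 7.45 RPKM for THP-1 and 0.499 for MonoMac-1, against 9.89 for HL60 and 14.3 for KG1a. Among the proliferation genes RRM2 was the only gene 2-fold apart, at 45.0 RPKM for THP-1 and 33.6 for MonoMac-1, against 115 for HL60 and 94.9 for KG1a. MKI67 was lowest in MonoMac-1 (16.9 RPKM) and highest in KG1a (94.8), and CDC20 highest in THP-1 (384).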
